A study of Mus musculus with 8 samples.

Results

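The *Dlk1*-*Dio3* imprinted locus on mouse chromosome 12 was examined in ultra-low input RNA-Seq libraries of embryonic stem (ES) cells, which are derived from the blastocyst and can form all tissues. The members are the 8 genes *Dlk1*, *Meg3*, *Rtl1*, *Rian*, *Gm37899*, *B830012L14Rik*, *Mirg* and *Dio3*, of 43309 genes in the table of counts, and they were chosen by their place in the locus. The locus itself was picked with results of these same 8 libraries in view, in which *B830012L14Rik* and *Gm37899* were among the genes with lower levels at 100 than at 1000 cells in both genotypes. Ratios between cell numbers are therefore given as a description with no test, and the tests between genotypes describe these libraries and are no independent evidence for the choice.

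The libraries form 4 groups of 2 replicates, which combine a genotype at *Zbtb24*, the gene of a zinc finger protein that is mutated in an immunodeficiency syndrome with DNA hypomethylation, with an input of 1000 or 100 cells. The ES cells were of the J1 line from the 129SV background, grown in serum on gelatin, and were lysed without RNA isolation before cDNA synthesis with the SMARTer Ultra Low kit, which copies polyadenylated RNA. Cells labelled wild type (WT) carry the alleles 2lox and +, and cells labelled knockout (KO) carry 1lox on both chromosomes. About 10 ng of RNA from 1000 cells received 10 cycles of PCR and about 1 ng from 100 cells received 18 cycles, so cell number and cycle number cannot be told apart. The replicates are clones of each genotype, but which clone gave which library is not stated in the sources used here, so genotype and clone cannot be told apart either. The spread between replicates may thus be that of clones or of preparations. Total counts ranged from 9666985 to 16686525 per library. *Zbtb24* itself had 197 to 269 counts in the libraries labelled WT and 494 to 545 in those labelled KO, so the count of the targeted gene was higher in every library labelled KO. Whether part of the transcript is missing cannot be read from a count per gene, and directions below are for the libraries as labelled. All 8 ES cell markers examined (*Pou5f1*, *Sox2*, *Nanog*, *Zfp42*, *Dppa5a*, *Tdgf1*, *Esrrb* and *Utf1*) were detected in every library, with summed levels from 5743 to 7252 cpm. The unit cpm stands for counts per 1000000 counts of the library.

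Imprinted genes are expressed from 1 parental chromosome only. In this locus the protein-coding genes *Dlk1*, *Rtl1* and *Dio3* are expressed mainly from the paternal chromosome. *Meg3*, *Rian*, *Mirg* and the many small nucleolar RNAs (snoRNAs) and microRNAs (miRNAs) hosted between them come from the maternal chromosome. A control region between *Dlk1* and *Meg3* is methylated on the paternal copy and sets this pattern. The maternal RNAs are known to be silenced in some mouse pluripotent cell lines that gain methylation there during culture.

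The genes lie in 1 stretch of GRCm38 chromosome 12, the assembly also called mm10, with start to end coordinates from GENCODE. *Dlk1* (ENSMUSG00000040856, protein-coding, chr12:109452823-109463336, plus strand) encodes a transmembrane protein related to Notch ligands. *Meg3* (ENSMUSG00000021268, long intergenic noncoding RNA, chr12:109541001-109571726, plus strand) starts 88.2 kb downstream of the *Dlk1* start. *Rtl1* (ENSMUSG00000085925, protein-coding, chr12:109589193-109600330, minus strand) derives from a retrotransposon and is needed in the placenta. *Rian* (ENSMUSG00000097451, noncoding processed transcript, chr12:109603940-109661716, plus strand) hosts snoRNAs. *Gm37899* (ENSMUSG00000102657, chr12:109668869-109677585, plus strand) is a single-exon transcript in the annotation class of models that await experimental evidence, and *B830012L14Rik* (ENSMUSG00000098202, long intergenic noncoding RNA, chr12:109695586-109702587, plus strand) follows it. *Mirg* (ENSMUSG00000097391, long intergenic noncoding RNA, chr12:109729764-109749460, plus strand) hosts miRNAs. *Dio3* (ENSMUSG00000075707, protein-coding, chr12:110279068-110281097, plus strand) encodes the deiodinase that inactivates thyroid hormone and starts 826 kb from the *Dlk1* start.

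2 promoter windows are shown because *Meg3* and *Rian* parted in the libraries of 100 cells labelled KO. RefSeq promoter sequences (GRCm38.p6, 300 bases around each start, most of them before it) were matched for 5 of the 8 members, namely *Dlk1*, *Meg3*, *Rian*, *Mirg* and *Dio3*. CG pairs, the sites of DNA methylation, are in capitals.
Meg3, chr12:109540746-109541045, plus strand: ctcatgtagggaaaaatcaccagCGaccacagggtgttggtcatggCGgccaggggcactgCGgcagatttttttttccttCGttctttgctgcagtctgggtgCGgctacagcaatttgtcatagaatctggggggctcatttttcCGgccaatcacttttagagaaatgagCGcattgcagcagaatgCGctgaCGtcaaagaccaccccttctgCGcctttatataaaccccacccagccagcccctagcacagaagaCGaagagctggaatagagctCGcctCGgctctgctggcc
Rian, chr12:109603695-109603994, plus strand: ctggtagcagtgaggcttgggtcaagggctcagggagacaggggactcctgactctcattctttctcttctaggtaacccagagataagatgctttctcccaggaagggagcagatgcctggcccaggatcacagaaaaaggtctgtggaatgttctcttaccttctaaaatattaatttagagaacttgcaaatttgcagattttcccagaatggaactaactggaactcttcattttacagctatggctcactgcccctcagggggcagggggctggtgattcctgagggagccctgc
The *Meg3* window holds 13 CG pairs, more than 62.1% of 32851 promoter windows, and the *Rian* window holds 0, against a median of 7. The window of a second *Meg3* start, not shown, holds 1, and those of *Dlk1*, *Mirg* and *Dio3* hold 9, 10 and 25. The letters TGACGTCA, the cAMP response element, read the same on both strands. They begin at base 194 of the *Meg3* window shown and are absent from the other 5 windows matched, the second *Meg3* window included. They occur in 588 promoter windows (1.79%). The letters CAGGACCT, a core reported for ZBTB24 binding, were searched on both strands, counted apart from the first motif, and found in 653 windows (1.99%) and in none of the members' windows. A match of letters is a description of the sequence and not a site of binding. Whether transcription starts at these windows in the cells used was not examined. A relation between the windows and the levels of *Meg3* and *Rian* was not tested.

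The strand of each read was not used in counting, which matters most for *Rtl1*. 6 miRNA genes (*Mir127*, *Mir136*, *Mir431*, *Mir432*, *Mir433* and *Mir434*) lie on the opposite strand within *Rtl1*, where the maternal antisense transcript runs, and cover 8.12% of its exon bases. All 11 of their mature miRNAs have a full complement in the *Rtl1* transcript. 4 are shown with the seed, bases 2 to 8, in capitals.
mmu-miR-127-3p, chr12:109592888-109592909, plus strand: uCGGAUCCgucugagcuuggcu
mmu-miR-136-5p, chr12:109595331-109595352, plus strand: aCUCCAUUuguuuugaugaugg
mmu-miR-433-3p, chr12:109591781-109591802, plus strand: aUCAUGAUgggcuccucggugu
mmu-miR-434-3p, chr12:109594565-109594586, plus strand: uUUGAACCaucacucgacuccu
Reads of *Rtl1* and of its antisense transcript cannot be told apart in these counts. Of the *Meg3* exon bases, 6.79% overlap *Gm26906* on the opposite strand and 1.5% overlap small RNA genes on the same strand. In 50-base windows, *Meg3* shares 10.4% of its sequence with other annotated transcripts, *Rtl1* 4%, and each of the other members at most 1.34%.

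The level of each gene was compared first within a group, as FPKM, the scaled cpm divided by the exon length in kb. This length is that of all annotated exons of the gene, 4505 bases for *B830012L14Rik* and 18234 for *Rian*. The authors reported that coverage in SMARTer libraries was biased toward the 3' end of transcripts. The order between genes of unlike length may therefore depend on this division. In WT at 1000 cells the order was *B830012L14Rik* at 4.62 ± 0.481 FPKM (SD, n = 2), *Rian* at 4.02 ± 0.288, *Gm37899* at 3.91 ± 0.953, *Meg3* at 3.72 ± 0.363, *Mirg* at 0.774 ± 0.0166, *Dlk1* at 0.672 ± 0.0104 and *Rtl1* at 0.322 ± 0.146. Each of the first 4 was within 1 SD of its neighbour in that order when both SDs are counted, while *Mirg*, *Dlk1* and *Rtl1* stood apart from each other. Before division by length, the first 4 ranked otherwise, with *Rian* at 73.3 cpm, *Meg3* at 67.3, *Gm37899* at 34.1 and *B830012L14Rik* at 20.8. In KO at 100 cells *Meg3* led at 3.37 ± 0.0946 FPKM (SD, n = 2), followed by *Rian* at 0.967 ± 0.114, *Dlk1* at 0.670 ± 0.172, *Gm37899* at 0.547 ± 0.0962, *B830012L14Rik* at 0.525 ± 0.0636, *Mirg* at 0.273 ± 0.0048 and *Rtl1* at 0.130 ± 0.0680. There the steps from *Dlk1* to *Gm37899* to *B830012L14Rik* were within their spread. *Dio3* had 0 to 2 counts in every library, under the floor of 3 counts, so it was not detectable at this depth, no fold is given for it, and it was not tested.

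The other 7 members had at least 10 counts in at least 1 library and were among 16816 genes tested. Of these, 6 had at least 10 counts in all 8 libraries, and *Rtl1* was below 10 in 3 libraries, all labelled KO.

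**Figure D1:**
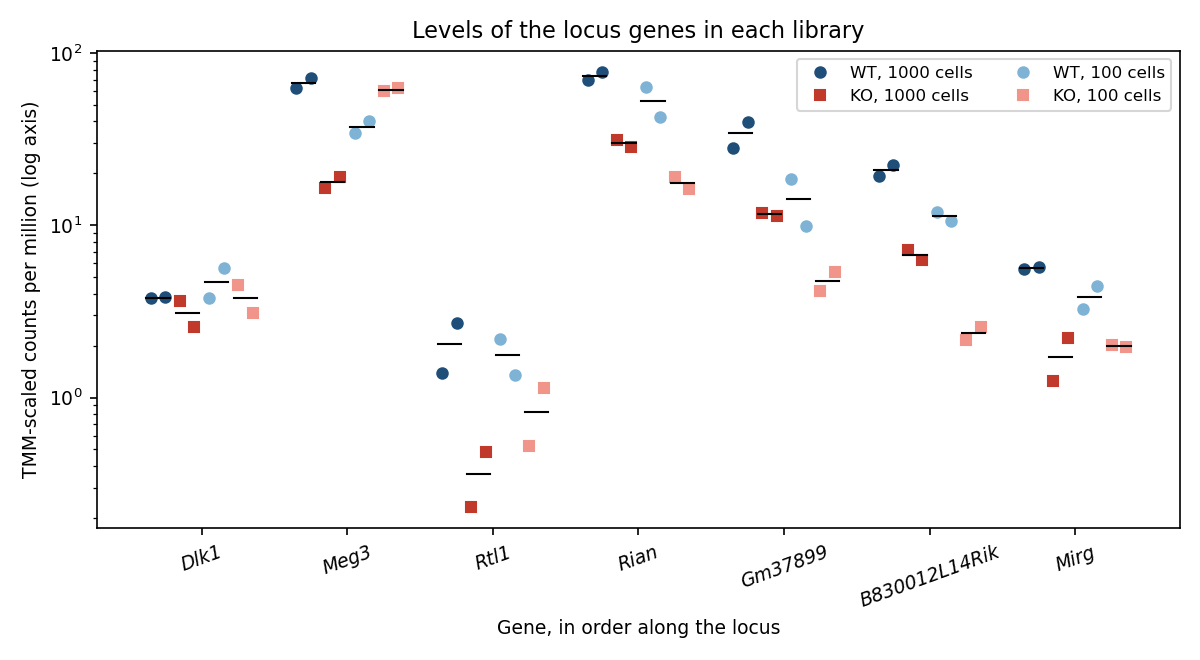
Level of 7 locus genes in each library, in TMM-scaled cpm on a log axis. Points are libraries and bars are the means of 2 replicates. Squares (KO) lie below circles (WT) for *Rian*, *B830012L14Rik*, *Mirg* and *Rtl1*, while *Meg3* in KO at 100 cells (59.8 and 62.2 cpm) lies above WT at 100 cells (34.1 and 40.1 cpm).

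Genotypes were compared at 1000 cells to ask which genes of the locus differ between KO and WT at the larger input. The noncoding RNAs and *Rtl1* were all lower in the libraries labelled KO, and *Dlk1* was not called. A gene was called where the quasi-likelihood test of edgeR gave a p of at most 0.05 after Benjamini-Hochberg adjustment over all genes tested. Of the 7 members tested, 6 fell, 0 rose and 1 was not called, where 20.6% of all genes were called lower and 20.9% higher. With libraries scaled by total count alone, 6 members fell as well, while the calls over all genes changed from 3514 higher and 3465 lower to 2776 higher and 4290 lower. The median log2 ratio was -1.62 over the 7 members, -0.00 over all genes, and 0.08 over 292 genes of chromosome 12 that averaged at least 10 cpm.

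At 1000 cells the WT libraries held *Meg3* at 62.6 and 71.9 cpm (counts scaled to library size by the trimmed mean of M values, TMM), and the KO libraries held it at 16.6 and 19.0 cpm. The libraries did not overlap, and the KO level was 3.76-fold lower (log2 ratio -1.91 ± 0.103, SE; edgeR adjusted p = 5.46e-15). *Rian*, the snoRNA host, was at 69.6 and 77.0 cpm in WT against 31.4 and 28.5 cpm in KO. Its KO level was 2.45-fold lower, with a log2 ratio of -1.29 ± 0.0908 (SE; edgeR adjusted p = 2.06e-12). *Gm37899* was at 28.2 and 39.9 cpm in WT against 11.8 and 11.3 cpm in KO, with a log2 ratio of -1.55 ± 0.139. *B830012L14Rik* was at 19.3 and 22.3 cpm in WT against 7.15 and 6.30 cpm in KO, with a log2 ratio of -1.62 ± 0.148. Both were thus close to 3-fold lower (2.92-fold and 3.08-fold), with edgeR adjusted p of 3.33e-10 and 4.18e-10. *Mirg*, the miRNA host at the far end of the cluster, was at 5.56 and 5.73 cpm in WT against 1.24 and 2.22 cpm in KO (log2 ratio -1.68 ± 0.272, SE; edgeR adjusted p = 9.37e-06).

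Of the paternal genes, *Rtl1* had 24 and 33 counts in the WT libraries of 1000 cells against 3 and 7 counts in the KO libraries. The KO libraries were lower, with a log2 ratio of -2.42 ± 0.526 (SE; edgeR adjusted p = 0.000427), an estimate that rests on 10 counts in KO. With 1 library left out at a time it ranged from -3.05 without replicate 2 of KO to -1.90 without replicate 2 of WT, and it passed the threshold each time. *Dlk1* was at 3.76 and 3.85 cpm in WT against 3.65 and 2.56 cpm in KO. Its log2 ratio was -0.30 ± 0.259 (SE; edgeR adjusted p = 0.381), within little more than 1 SE of 0. *Dlk1* lies upstream of the control region and the called genes downstream of it, and the difference between their ratios was not tested.

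Genotypes were then compared at 100 cells. Most of the noncoding RNAs were again lower in KO, and *Meg3* was higher. Of the 7 members tested, 4 fell (*Rian*, *Gm37899*, *B830012L14Rik* and *Mirg*), 1 rose (*Meg3*) and 2 were not called (*Rtl1* and *Dlk1*), where 16.6% of all genes were called lower and 17.6% higher. The median log2 ratio was -1.11 over the 7 members, -0.00 over all genes and -0.05 over the genes of chromosome 12.

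At 100 cells *Meg3* was at 34.1 and 40.1 cpm in WT against 59.8 and 62.2 cpm in KO. Both KO libraries lay above both WT libraries, and the level was 1.59-fold higher (log2 ratio 0.67 ± 0.125, SE; edgeR adjusted p = 0.00364). This call was lost without replicate 2 of KO at 100 cells, where the log2 ratio was 0.64 and the edgeR adjusted p was 0.0787. *B830012L14Rik* was at 11.97 and 10.6 cpm in WT against 2.16 and 2.57 cpm in KO, the lowest ratio of the 7 members at this input, at 4.90-fold lower (log2 ratio -2.29 ± 0.239, SE; edgeR adjusted p = 0.000237). *Rian* was at 63.1 and 42.3 cpm in WT against 19.1 and 16.2 cpm in KO, with a log2 ratio of -1.62 ± 0.199 (edgeR adjusted p = 0.000520). *Gm37899* was at 18.5 and 9.96 cpm in WT against 4.18 and 5.37 cpm in KO, with a log2 ratio of -1.61 ± 0.308 (edgeR adjusted p = 0.00414). The WT replicates of these last genes were further apart from each other than the KO replicates were.

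*Mirg* had 33 and 59 counts in the WT libraries of 100 cells against 27 and 26 counts in the KO libraries. After scaling, the KO libraries were 2.01-fold lower (log2 ratio -1.01 ± 0.319, SE; edgeR adjusted p = 0.0356). The call of *Mirg* was lost under 5 of 11 alternatives, among them DESeq2 (adjusted p = 0.171), and its adjusted p ranged from 0.000905 to 0.268. *Rtl1* had 22 and 18 counts in WT and 7 and 15 counts in KO, with a log2 ratio of -1.11 ± 0.536 (edgeR adjusted p = 0.137). It passed the threshold without replicate 2 of WT at 100 cells (edgeR adjusted p = 0.0131), a fit that assumes the lone WT library to vary as the KO pair does. *Dlk1* was at 3.76 and 5.66 cpm in WT against 4.48 and 3.10 cpm in KO, which overlapped, with a log2 ratio of -0.37 ± 0.307 (edgeR adjusted p = 0.375). Under the same assumption, *Dlk1* passed without replicate 1 of WT at 100 cells, with a log2 ratio of -0.61 (edgeR adjusted p = 0.0382).

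**Figure D2:**
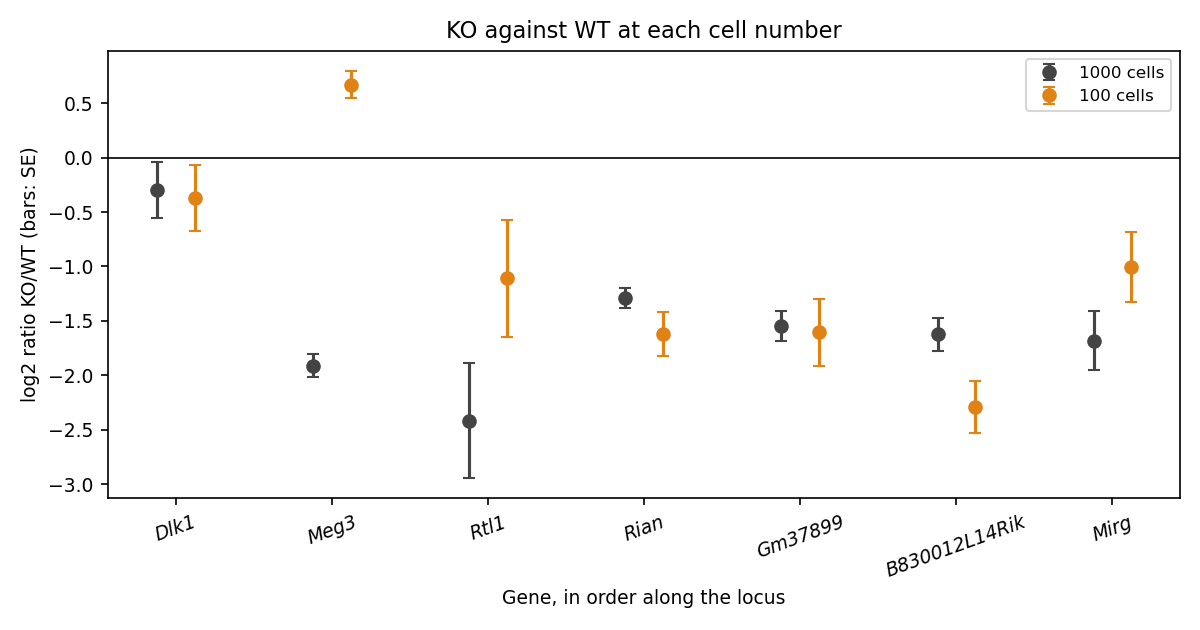
Log2 ratio of KO to WT for 7 locus genes in order along the chromosome, at 1000 cells (dark) and 100 cells (orange). Points are edgeR estimates from 2 against 2 libraries and bars are SE. All 7 points at 1000 cells are below 0, and at 100 cells *Meg3* alone is above 0, at 0.67.

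Across both inputs, all 4 libraries labelled KO were below all 4 labelled WT for 4 of the 7 members tested (*Rtl1*, *Rian*, *B830012L14Rik* and *Mirg*), which held for 13.9% of all genes. For *Gm37899* the exception was WT replicate 2 at 100 cells (9.96 cpm), which lay below both KO libraries of 1000 cells. For *Meg3* the KO libraries of 100 cells lay just below the WT libraries of 1000 cells and above the other WT libraries.

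The change of the KO to WT ratio from 1000 to 100 cells was tested with an interaction term over all 8 libraries. It is also the difference between the input ratios of KO and WT, so the limit on those ratios holds here. *Gm37899* and *B830012L14Rik* were noticed as lower at 100 cells in both genotypes, which favours a small value for them. Of the 7 members *Meg3* alone was called, with a log2 value of 2.62 ± 0.170 (SE; edgeR adjusted p = 1.15e-06), where 9.28% of all genes had a ratio that was called higher at 100 cells. *B830012L14Rik* had -0.62 ± 0.271 (edgeR adjusted p = 0.128) and *Rian* -0.28 ± 0.225 (edgeR adjusted p = 0.421). Without replicate 2 of WT at 100 cells both passed the threshold as lower, at -0.71 (edgeR adjusted p = 0.0489) and -0.55 (edgeR adjusted p = 0.00455), and the count of members called was 3. *Gm37899* had a log2 value of 0.00 (edgeR adjusted p = 1.00), *Mirg* 0.72 ± 0.439 (edgeR adjusted p = 0.279), *Rtl1* 1.36 ± 0.821 (edgeR adjusted p = 0.273) and *Dlk1* -0.03 ± 0.414 (edgeR adjusted p = 0.975). Missing the threshold does not show that these ratios were alike at both inputs.

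The make-up of the 5 noncoding genes showed the same parting of *Meg3* without any scaling between libraries. Of the summed counts of *Meg3*, *Rian*, *Gm37899*, *B830012L14Rik* and *Mirg*, *Meg3* held 33.8% and 33.2% in the WT libraries of 1000 cells, 26.1% and 37.3% in those of 100 cells, and 24.3% and 28.3% in the KO libraries of 1000 cells. In KO at 100 cells *Meg3* held 68.5% (95% Clopper-Pearson interval 65.8% to 71.2%, counting error only) and 70.5% (67.8% to 73.1%). *Meg3* counts were 0.527 to 0.948 times those of *Rian* in the first 6 libraries and 3.13 and 3.85 times in KO at 100 cells. At 1000 cells the 5 genes summed to 201 ± 22.4 cpm in WT against 67.7 ± 0.606 cpm in KO (SD, n = 2). At 100 cells the sums were 119 ± 16.6 cpm in WT against 87.7 ± 0.729 cpm in KO. The sum in KO was thus higher at 100 than at 1000 cells while 3 of the 5 genes were lower.

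Markers of neural cells were high together with *Meg3*, which neurons also express, in KO at 100 cells. At 1000 cells the glia sum was higher in KO, while *Meg3* and the summed neuron markers were lower. All 10 glia markers and 10 of 12 neuron markers were higher in both KO libraries of 100 cells than in the other 6 libraries, with *Stmn2* and *Tubb3* as the exceptions. The share of all genes that stood out in this way was not counted, here or for the lists below. In KO, 37.6% of all genes were higher at 100 than at 1000 cells without overlap. The margin was small for *Slc1a3*, at 27.8 cpm in KO replicate 1 at 100 cells against 27.0 cpm in WT replicate 2 at 1000 cells. The summed glia markers reached 117 to 141 cpm over the 4 WT libraries, 185 and 205 cpm in the KO libraries of 1000 cells, and 465 and 466 cpm in those of 100 cells. *Mbp*, a myelin protein gene, was at 104 ± 2.04 cpm in the KO libraries of 100 cells against 1.35 ± 0.195 cpm in their WT controls, and *Snap25*, a synaptic gene, was at 80.4 ± 4.59 and 1.91 ± 0.182 cpm (SD, n = 2). *Aqp4*, which marks astrocytes, was at 0 counts in all 4 libraries of 1000 cells and had 38 and 34 counts in KO at 100 cells. The summed neuron markers, most of whose counts were from *Stmn2* and *Tubb3*, reached 709 to 798 cpm over the 4 WT libraries, 594 and 608 cpm in the KO libraries of 1000 cells, and 797 and 820 cpm in those of 100 cells. In bulk counts, a change in the number of cells of a type and in RNA per cell cannot be told apart. Whether these transcripts came from the cultured cells or from outside them cannot be read from counts per gene either. The part of these markers in the *Meg3* result was not tested. Summed fibroblast markers were 1.94 to 4.34 cpm in 6 libraries and 6.57 cpm in both KO libraries of 100 cells, with 3 of 8 markers above all other libraries, summed primitive endoderm markers were 31.7 to 45.6 cpm with 1 of 8 above, and summed blood markers were below 1 cpm in every library with 2 of 4 above.

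**Figure D3:**
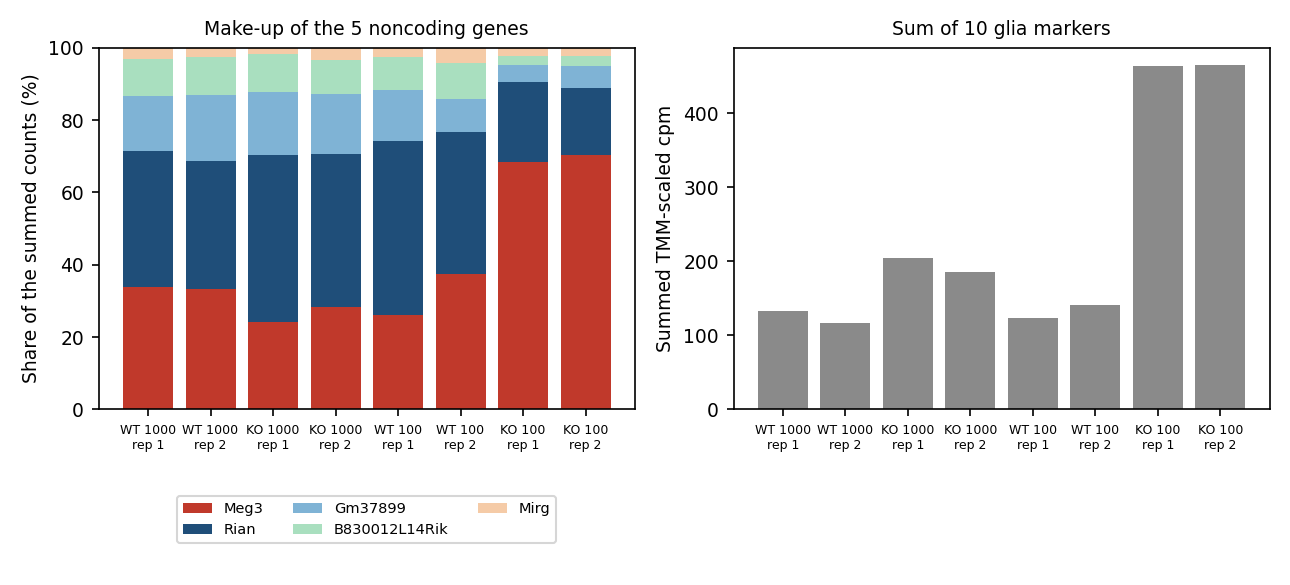
Left, share of *Meg3*, *Rian*, *Gm37899*, *B830012L14Rik* and *Mirg* in their summed counts (%) in each library. Right, summed level of 10 glia markers in TMM-scaled cpm. *Meg3* holds 68.5% and 70.5% in KO at 100 cells and at most 37.3% in the others, and the glia sum is 465 and 466 cpm there and at most 205 cpm in the others.

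Levels at 100 and 1000 cells were compared within each genotype as a description, since 2 members had been noticed in this contrast. The ratios use the same libraries as those between genotypes and are no separate evidence. In WT, 5 of the 7 members had both libraries of 100 cells below both of 1000 cells and 0 had both above, where 21.6% of all genes were lower in this way. The log2 ratios in WT were -1.28 ± 0.245 (SE) for *Gm37899*, -0.90 ± 0.185 for *B830012L14Rik*, -0.87 ± 0.143 for *Meg3*, -0.55 ± 0.280 for *Mirg* and -0.49 ± 0.170 for *Rian*. *Rtl1* (-0.21 ± 0.473) and *Dlk1* (0.30 ± 0.298) overlapped between inputs. The median over the 7 members was -0.55, against -0.00 for all genes.

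In KO, 3 members were lower at 100 cells without overlap and 2 higher, where 37.8% of all genes were lower and 37.6% higher in this way. *B830012L14Rik* had a log2 ratio of -1.5 ± 0.221 (SE), *Gm37899* -1.27 ± 0.169 and *Rian* -0.76 ± 0.106. *Meg3* had 1.78 ± 0.0899, from 16.6 and 19.0 cpm to 59.8 and 62.2 cpm, and *Rtl1* had 1.16 ± 0.631, from 10 to 22 counts over its libraries. *Mirg* (0.19 ± 0.330) and *Dlk1* (0.30 ± 0.252) overlapped. *Rian*, *Gm37899* and *B830012L14Rik* were thus lower at 100 cells in both genotypes, and *Meg3* was lower in WT and higher in KO. In KO the count of lower members was near the share of all genes. *Gm37899* and *B830012L14Rik* had been noticed for this pattern, and the share of all genes lower in both genotypes was not counted.

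**Figure D4:**
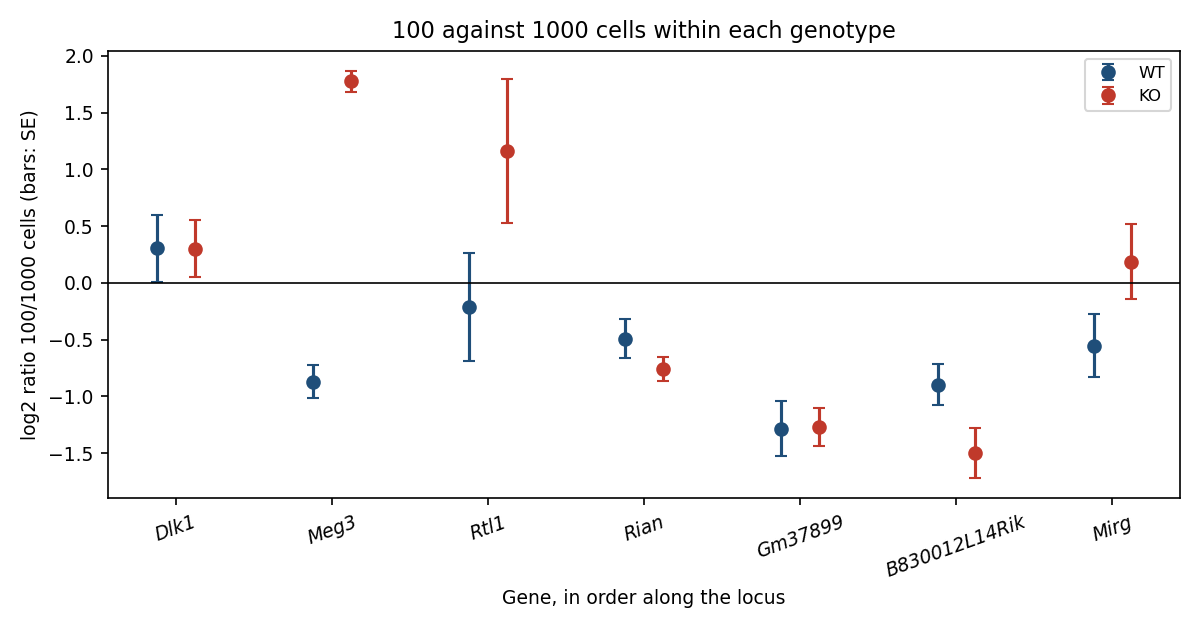
Log2 ratio of 100 to 1000 cells for 7 locus genes within WT (blue) and within KO (red). Points are edgeR estimates from 2 against 2 libraries and bars are SE. The 2 genotypes are close for *Gm37899* (-1.28 and -1.27) and far apart for *Meg3* (-0.87 and 1.78).

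Small RNA genes and other transcripts inside the interval were counted in the same table. From the start of *Dlk1* to the end of *Dio3* there are 110 other annotated genes, of which 88 were in the table, 33 had a count in any library and 3 were tested. Of these, *Gm27596*, *Gm26945* and the snoRNA gene *DQ267101*, 0 were called by edgeR or DESeq2 at either input or in the interaction. At an unadjusted p below 0.05, edgeR passed *DQ267101* at 1000 cells, but this gene reached the minimum of 10 counts in 1 WT library of 1000 cells only, which favours a lower ratio there. *Gm26945* passed at 100 cells, where it had 4 and 8 counts in WT and 1 and 0 in KO, and limma-voom called it lower. The 23 snoRNA genes together had 47 and 34 counts in WT against 10 and 14 in KO at 1000 cells, and 24 and 22 against 5 and 3 at 100 cells. Their summed level was 2.75 ± 0.0436 cpm in WT against 0.873 ± 0.136 cpm in KO at 1000 cells, and 2.02 ± 0.504 cpm and 0.300 ± 0.104 cpm at 100 cells (SD, n = 2). The sums lay lower in KO at both inputs, as did *Rian*, the host of many of these genes, and this was not tested. Reads of the snoRNAs and of their host transcript cannot be told apart in these counts. Of 67 miRNA genes, 59 were in the table and no count was above 7. The kit copies polyadenylated RNA, and mature miRNAs have no poly(A) tail.

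Genes on either side of the locus were read from the same tests. Of 16 flanking genes, 8 upstream and 8 downstream, 4 rose, 1 fell and 11 were not called at 1000 cells, with a median log2 ratio of 0.14. Of them, *Degs2*, *Slc25a47* and *Begain* had at most 13 counts in any library, which leaves little room for a call. The shares of all genes were 20.9% higher and 20.6% lower, so flanking genes rose at a rate near the background. The lower count of those that fell rests on 16 genes, and its difference from the background was not tested. Those named by size were *Mok*, a protein kinase gene (log2 ratio 0.95), *Ppp2r5c*, a regulatory subunit of protein phosphatase 2A (0.51), *Cinp* (0.32) and *Dync1h1*, the dynein heavy chain (-0.24). At 100 cells 17.6% of all genes were called higher and 16.6% lower. Of the flanking genes 4 rose, 0 fell and 12 were not called, with a median of 0.17. They were *Wdr25* (2.05), *Mok* (1.08), *Ppp2r5c* (0.38) and *Wars*, a tryptophanyl-tRNA synthetase (0.33), and the call of *Wars* was lost when libraries were scaled by total count alone (edgeR adjusted p = 0.0601). In the interaction *Wdr25* was higher (1.91) and *Cinp* lower (-0.37), and the call of *Cinp* was lost under the same scaling (edgeR adjusted p = 0.0628). None of the flanking genes had a log2 ratio at 1000 cells as low as those of the 6 members that fell there. At 100 cells *Slc25a47* (-1.18 ± 0.753, SE) and *Slc25a29* (-1.09 ± 0.630), neither called, lay below *Mirg* (-1.01). *Rian*, *Gm37899* and *B830012L14Rik* were lower than every flanking gene at that input. Further out, *Ak7*, at -3747 kb from the *Dlk1* start, was called lower at 1000 cells (-1.29 ± 0.135), near *Rian* (-1.29). No other gene outside the locus that was plotted by distance was as low there. Overlaps of the flanking genes with other genes were not analysed here.

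**Figure D5:**
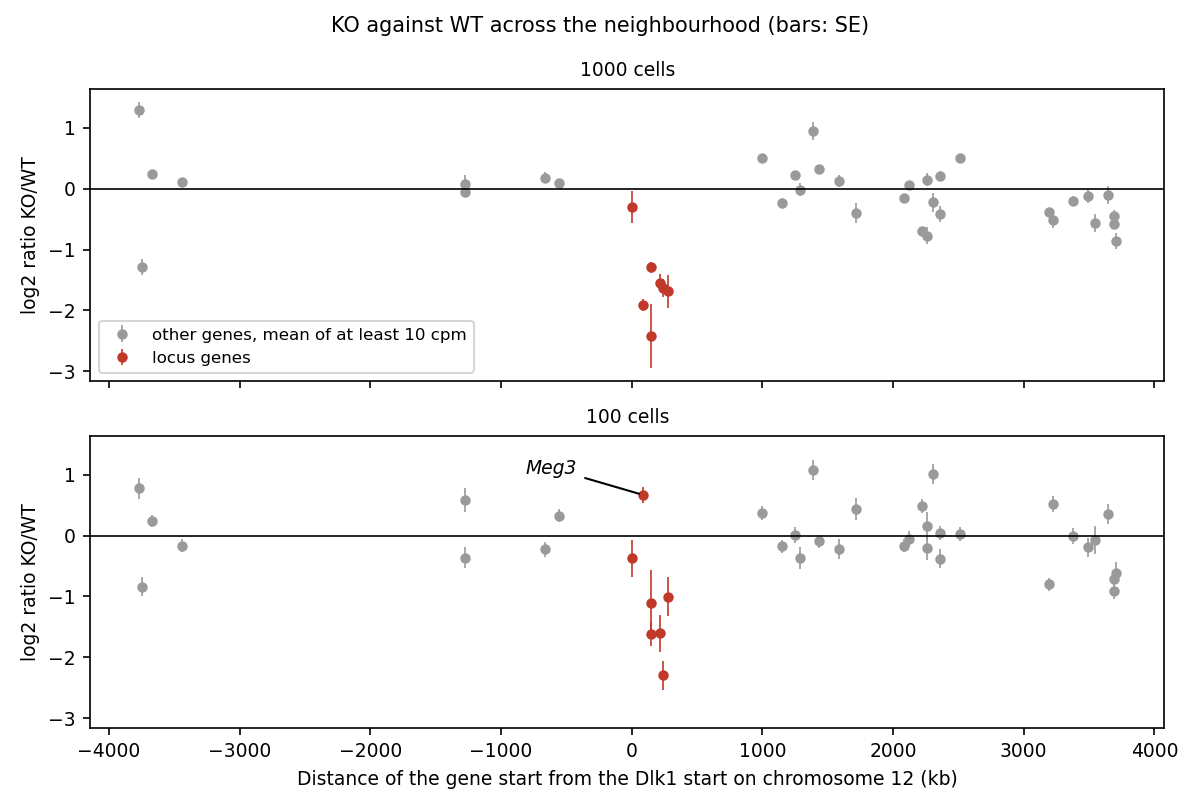
Log2 ratio of KO to WT against the distance of each gene start from the *Dlk1* start (kb), at 1000 cells (top) and 100 cells (bottom). Red points are 7 locus genes, grey points are 34 other genes that averaged at least 10 cpm, and bars are SE. Of the red points, 6 are called lower at 1000 cells and 4 at 100 cells, where *Meg3* is above 0 at 0.67.

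Genes known to set, keep or erase imprints, or to act in Polycomb repression, were examined as a list because they act on the control region or on such loci. Of 16 genes, 1 rose, 8 fell and 7 were not called at 1000 cells, with a median log2 ratio of -0.41, where 20.6% of all genes were called lower and 20.9% higher. Those that fell were the de novo DNA methyltransferases *Dnmt3b* (-2.17) and *Dnmt3a* (-1.01), their cofactor *Dnmt3l* (-1.41), *Dppa3* (-1.18), which protects maternal methylation in the early embryo, the zinc finger genes *Zfp445* (-0.82) and *Zfp57* (-0.41), which bind methylated imprinted regions, *Tet1* (-0.43), which oxidises methylcytosine, and *Jarid2* (-0.40), a Polycomb cofactor. The Polycomb methyltransferase gene *Ezh2* rose (0.18). Under scaling by total count alone 0 rose and 12 fell, with *Trim28*, *Dnmt1*, *Aff3* and *Suz12* added and *Ezh2* no longer called.

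At 100 cells 1 of the 16 rose, 7 fell and 8 were not called, with a median of -0.31, where 16.6% of all genes were called lower and 17.6% higher. Those that fell were *Aff3* (-2.20), a protein that binds the control region, *Dppa3* (-1.48), *Dnmt3l* (-1.35), *Dnmt3b* (-1.34), *Dnmt3a* (-1.06), *Eed* (-0.49) and *Jarid2* (-0.30), and *Dnmt1*, the maintenance methyltransferase gene, rose (0.36). The interaction was called higher for *Dnmt3b* (0.87) and *Dnmt1* (0.55) and lower for *Aff3* (-1.71) and *Eed* (-0.41). These genes differed between the same libraries as the locus genes did, and a relation between them was not tested. Sequence that they share with other genes was not examined.

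The summed counts of the 5 noncoding genes were then set against 8364 genes outside the locus that averaged at least 10 cpm, over the 8 libraries. The highest Pearson coefficients on the scale of log2(cpm + 0.5) were those of *Nexmif* (0.986), *Topors* (0.983), *Rnf168* (0.980), *Syncrip* (0.975) and *Fam169a* (0.974). *Nexmif* was at 47.0 ± 2.56 cpm in WT against 13.8 ± 0.0161 cpm in KO at 1000 cells, and at 30.1 ± 3.60 cpm against 17.5 ± 0.534 cpm at 100 cells (SD, n = 2). The 8 points fall into 4 groups that share preparation and genotype, so these coefficients largely describe the spacing of the group means. They are the 5 highest of 8364, a choice that favours high values.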

How the data were processed

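RNA was measured in 8 libraries of mouse ES cells, in 4 groups of 2 taken from the genotype and cell number in the labels. The deposited table holds raw fragment counts per gene, and no column was left unused. To make it, the authors removed ribosomal reads with Bowtie2 2.1.0, aligned the rest to mm10 by TopHat2 2.0.10, and used HTSeq 0.6.1 in union mode to count fragments in genes of GENCODE M4. Strand was ignored, and fragments of several genes or positions were discarded, so overlapping or shared sequence loses counts or takes those of a neighbour. The sources used here do not state whether PCR duplicates were removed, and intervals cover counting error only.

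The members and gene lists were chosen with earlier results of these data known. The genes named were the 8 members, *Zbtb24*, tested genes inside the interval, up to 4 flanking genes per comparison by size among those called, each called gene of the imprint and Polycomb list, and the 5 genes most like the summed noncoding RNAs. Further names were picked once their values were known. Positions came from GENCODE M21 on GRCm38 (42425 of 43309 identifiers matched, 97.96%) and sequences from RefSeq.

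Tests were run on genes that reached 10 counts in any library. They used edgeR 4.0.16 (quasi-likelihood F test, two-sided) under R 4.3.3 after TMM normalization, with Benjamini-Hochberg adjustment over 16816 genes and a threshold of 0.05. KO and WT were compared on the 4 libraries of each input, and the interaction on all 8. SE is the log2 ratio divided by the square root of F, and is not given where F was close to 0. With 2 libraries per group, the spread of a gene is estimated largely from all genes together. FPKM used exon lengths from the annotation. Total counts ranged from 9666985 to 16686525, and 3 counts were taken as the floor. The script was checked on simulated counts with known changes. Alternatives were DESeq2 size factors or total count for scaling, DESeq2 1.42.0 and limma-voom 3.58.1, no filter beyond 1 count, a log2 ratio above 1 in size, 1 fit of all libraries, the replicate number as a block, and each library left out in turn. A block with crossed replicate numbers was added after seeing the data.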

Additional observations from a re-analysis of the deposited data

Results flagged for a closer look

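1 result was singled out by a difference between groups under the same contrast. The log2 ratio of KO to WT of *Meg3* was -1.91 at 1000 cells and 0.67 at 100 cells, and the interaction, a test of the difference itself, gave 2.62 (edgeR adjusted p = 1.15e-06). Over its 14 alternatives the interaction ranged from 2.51 to 2.75 and stayed past the threshold, with an adjusted p of at most 6.2e-05. The part of the neural transcripts that were high in the same 2 KO libraries of 100 cells was not tested.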

How the results depend on the processing

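The alternatives that kept all libraries left the counts of members called within 1.5 times of those reported and changed no median of the ratios between genotypes or between inputs in direction or beyond the spread between replicates. The median interaction of the members lay at 0.0019, and at -0.0045 with DESeq2 size factors. At 1000 cells 6 members were called under every alternative, libraries left out included. At 100 cells, 3 to 6 members were called when 1 library was left out, and the median log2 ratio ranged from -1.51 to -1.02. The lowest count and the lowest median were those without replicate 2 of KO. The interaction called 1 to 3 members when 1 library was left out, with 3 without replicate 2 of WT at 100 cells. The median ratio of 100 to 1000 cells in KO ranged from -0.15 to 0.21 when 1 library was left out, and it was below 0 without replicate 1 of KO at 1000 cells. The cause was not tested.

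Of the single genes, interaction values near 0 changed sign. *Gm37899* gave -0.0045 with DESeq2 size factors and -0.015 with the DESeq2 test, and *Dlk1* gave 0.0076 with library size alone. With 1 library left out, *Dlk1* ranged from -0.32 to 0.31, *Gm37899* from -0.41 to 0.48 and *Rian* from -0.55 to 0.028.

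Labels do not tie equal replicate numbers to shared clones or days. The differences between replicates 1 and 2, correlated over 8368 genes, gave 0.154 between KO and WT at 1000 cells and 0.170 at 100 cells, and -0.124 between inputs in WT and -0.0383 in KO. With the replicate block, 6, 5 and 1 members were called at 1000 cells, at 100 cells and in the interaction, which are the counts without it. A block with crossed numbers, added after seeing the data, gave a median ratio of inputs in WT of -0.56, against -0.55. Counts of *Rtl1* in KO ranged from 3 to 15 and those of *Mirg* from 16 to 32, which limits the precision of their ratios, and *Dio3* was below the floor of 3 counts.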
